A study of Mus musculus with 55 samples.

Results

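The genes of the MCM helicase and of its loading at replication origins were followed through RNA and chromatin data from mouse small cell lung cancers grown from edited lung organoids. The 10 members were taken by gene symbol: Mcm2, Mcm3, Mcm4, Mcm5, Mcm6, Mcm7, Mcm10, Cdc45, Cdc6 and Cdt1. All 10 were present among the 15479 genes of the count table of PRMK and PRM tumours and among the 51912 gene IDs of the count table of sgMeis2 and sgScramble tumours, and all 10 passed the filter on low counts in both. In the peak data, each gene was read with 10 kb to either side.

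Before DNA can be copied, the origin recognition complex, Cdc6 and Cdt1 load rings of the Mcm2 to Mcm7 subunits onto DNA, a step called licensing that is confined to the phase before DNA synthesis. At the start of synthesis the ring is joined by Cdc45 and the GINS proteins, with the help of Mcm10, and this assembly (CMG) unwinds the DNA. The genes are known targets of E2F transcription factors, which the Rb1 protein holds in check and which are freed where Rb1 is lost, as it commonly is in small cell lung cancer.

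The edited organoids had been transplanted into the left lung lobe of recipient mice and the tumours harvested, so host cells can be present in each sample. PRMK and PRM tumours both carried plasmids with guides against Trp53 and Rb1 and a retroviral Myc with a luciferase reporter. PRMK stands for the addition of a guide against Kmt2c, which encodes an enzyme that methylates lysine 4 of histone H3 (H3K4). The sgMeis2 tumours carried the guides against Trp53, Rb1 and Kmt2c, the Myc construct and a guide against Meis2, and the sgScramble tumours carried a scrambled guide in its place. All these RNA samples are labelled lung, and peak lists of PRM tumours in liver were also used. RNA was measured in 12 libraries, 3 in each of these 4 groups, and peaks in 26 libraries, 2 in each of 13 groups, of 55 samples in the series. Strain, age and the number of animals are not given in the sources used here, and no label states whether replicates are different animals, so p-values measure only the spread between these libraries, which may be technical.

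Several labels limit the comparison of PRMK with PRM. For PRMK RNA, the plasmids listed hold no Kmt2c guide. Only PRM RNA is labelled with a stranded library kit, so library preparation and genotype cannot be told apart. The PRM columns are numbered 4 to 6 and the sample titles 3 to 5, and the column numbers are used here. PRMK and PRM labels cite different tables of this comparison, and columns were matched to groups by name. The PRMK chromatin pairs for H3K4me2, H3K4me3 and KMT2C are mixed, since the Meis2 guide is listed for replicate 1 and the scrambled guide for replicate 2.

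Total counts ran from 12013253 to 24389041 per RNA library. As a check of the labels, Kmt2c was at 85.1, 84.4 and 105 CPM (counts scaled to library size by the TMM method) in PRMK libraries 1 to 3, against 113, 187 and 67.6 CPM in PRM libraries 4 to 6. The groups overlapped, and the log2 fold change was -0.42 (SE 0.38; edgeR adjusted p = 0.585). Myc was at 273, 312 and 205 CPM in PRMK, against 1140, 2306 and 2059 CPM in PRM, and the groups did not overlap. The log2 fold change of Myc was -2.80 (SE 0.36), which did not pass the edgeR test (adjusted p = 0.158) and was called by DESeq2 (adjusted p = 1.57e-10). Rb1, targeted in both groups, was at 40.0, 44.0 and 17.8 CPM in PRMK, against 22.2, 6.95 and 3.38 CPM in PRM, with overlap. The tissue label was read against marker genes. Of the neuroendocrine markers, 8 were in this table, and their summed level was 3520 to 5614 CPM in PRMK and 124 to 5374 CPM in PRM, with PRM library 6 at 124. Epithelial markers (4 in the table) summed to 517 to 2860 CPM in PRMK and 48.6 to 2814 CPM in PRM, with PRM library 6 the highest of the PRM libraries. Myeloid markers (4 in the table) summed to 466 to 682 CPM in PRMK and 3.98 to 490 CPM in PRM. Fibroblast markers (6) summed to 61.4 to 239 CPM in PRMK and 3.08 to 256 CPM in PRM, and endothelial markers (4) to 23.5 to 200 CPM in PRMK and 0.785 to 38.6 CPM in PRM. PRM library 5 was the lowest of the 6 libraries in all of the epithelial, myeloid, fibroblast and endothelial sums. PRM library 6 was thus low in the markers that define the tumour type.

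On GRCm38, in RefSeq, the ring subunits lie at chr6:88883474-88898780 (Mcm2), chr1:20802966-20820312 (Mcm3), chr16:15623897-15637400 (Mcm4), chr8:75109468-75128439 (Mcm5), chr1:128331575-128359705 (Mcm6) and chr5:138164583-138172111 (Mcm7). Mcm10 lies at chr2:4990724-5012791, Cdc45 at chr16:18780447-18811972, Cdc6 at chr11:98907709-98923942 and Cdt1 at chr8:122568015-122573130, so that Mcm5 and Cdt1 share a chromosome, as do Mcm3 and Mcm6, and Mcm4 and Cdc45. Promoter sequence was taken from RefSeq on build GRCm38.p6, for 9 of the 10 genes; Mcm4 has no entry in the table used. The starts in that table are those of RefSeq entries, and for Mcm5, Mcm7 and Cdc6 they lie inside the gene span given above, so that their windows overlap the span, for Cdc6 wholly. The 250 bases before each such start were searched on both strands for words known as E2F sites (TTTCCCGC, TTTCGCGC, TTTGCCGC or TTTGGCGC), which 1.86% of all 32851 promoter entries hold. They were found in 4 members, Mcm5, Mcm6, Mcm7 and Cdc6. The CCAAT box (CCAAT), held by 33.8% of all entries, was found in 7 members: Mcm2, Mcm3, Mcm5, Mcm6, Mcm7, Mcm10 and Cdc45. The CHR element (TTTGAA, 16.0% of all entries) was found in Mcm2 and Cdc45, and the E-box CACGTG (6.02% of all entries), a word bound by Myc, in none. The Mcm5 and Mcm6 promoters each hold E2F words that overlap on opposite strands. These matches describe the letters of the windows and no binding was measured. The 4 promoters with E2F words and that of Mcm10, whose RNA difference was the largest among the members, are printed 5′ to 3′ on the gene's strand, with E2F words and CCAAT boxes in capitals; for Mcm7 the first of 2 entries is shown.
Mcm5 (chr8:75109259-75109508, + strand): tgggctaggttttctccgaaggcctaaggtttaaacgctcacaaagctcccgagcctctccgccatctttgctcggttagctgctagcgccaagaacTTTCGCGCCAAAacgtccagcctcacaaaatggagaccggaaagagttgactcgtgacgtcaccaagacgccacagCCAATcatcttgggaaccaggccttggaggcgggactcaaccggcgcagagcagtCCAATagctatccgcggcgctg
Mcm6 (chr1:128359706-128359955, - strand): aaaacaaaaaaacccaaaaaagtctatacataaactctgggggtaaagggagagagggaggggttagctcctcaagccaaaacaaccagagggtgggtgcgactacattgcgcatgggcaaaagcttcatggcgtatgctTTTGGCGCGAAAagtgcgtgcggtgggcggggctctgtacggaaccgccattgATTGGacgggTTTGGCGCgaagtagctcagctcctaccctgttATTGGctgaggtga
Mcm7 (chr5:138171884-138172133, - strand): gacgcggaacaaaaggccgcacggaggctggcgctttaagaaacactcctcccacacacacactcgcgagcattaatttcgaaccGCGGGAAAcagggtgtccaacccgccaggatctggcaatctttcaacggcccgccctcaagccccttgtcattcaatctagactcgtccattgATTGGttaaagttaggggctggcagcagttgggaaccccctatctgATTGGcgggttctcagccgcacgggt
Cdc6 (chr11:98907901-98908150, + strand): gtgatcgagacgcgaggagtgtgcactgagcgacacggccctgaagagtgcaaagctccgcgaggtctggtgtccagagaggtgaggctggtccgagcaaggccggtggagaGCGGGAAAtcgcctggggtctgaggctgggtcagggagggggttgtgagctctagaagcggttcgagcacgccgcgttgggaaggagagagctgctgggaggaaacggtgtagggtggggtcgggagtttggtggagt
Mcm10 (chr2:5012792-5013041, - strand): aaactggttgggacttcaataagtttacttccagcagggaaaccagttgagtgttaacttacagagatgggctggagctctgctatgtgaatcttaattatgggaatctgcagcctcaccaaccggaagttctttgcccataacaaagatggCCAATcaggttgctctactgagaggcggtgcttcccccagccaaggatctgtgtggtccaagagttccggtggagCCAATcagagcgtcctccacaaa

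The first comparison set PRMK against PRM lung tumours. By edgeR's quasi-likelihood test, 0 of 10 members passed a Benjamini-Hochberg adjusted p under 0.05, and so did 0.00% of the 13914 genes tested (0 genes). At an unadjusted p under 0.05, 1 member passed, Mcm10, against 17.1% of all genes tested (2384 genes). DESeq2 called 1 member, again Mcm10, as lower in PRMK; it called 8.75% of all genes tested (1218 genes), 4.86% as lower. Log2 fold changes (PRMK over PRM) were below 0 for 8 of the 10 members, where 51.4% of all genes tested were below 0, and 54.7% of the 10103 genes with a mean of at least 10 CPM, the range in which every member lies. Their median was -0.28, against -0.02 over all genes tested and -0.07 over genes of at least 10 CPM. Without PRM library 5 the members' median was -0.14, and without PRM library 6 it was -0.42. For any member that is lower, bulk tumour RNA cannot tell apart fewer cells in cycle and less transcript in each cell. Nor can these be told apart from the library kit or the share of host cells.

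**Figure D1:**
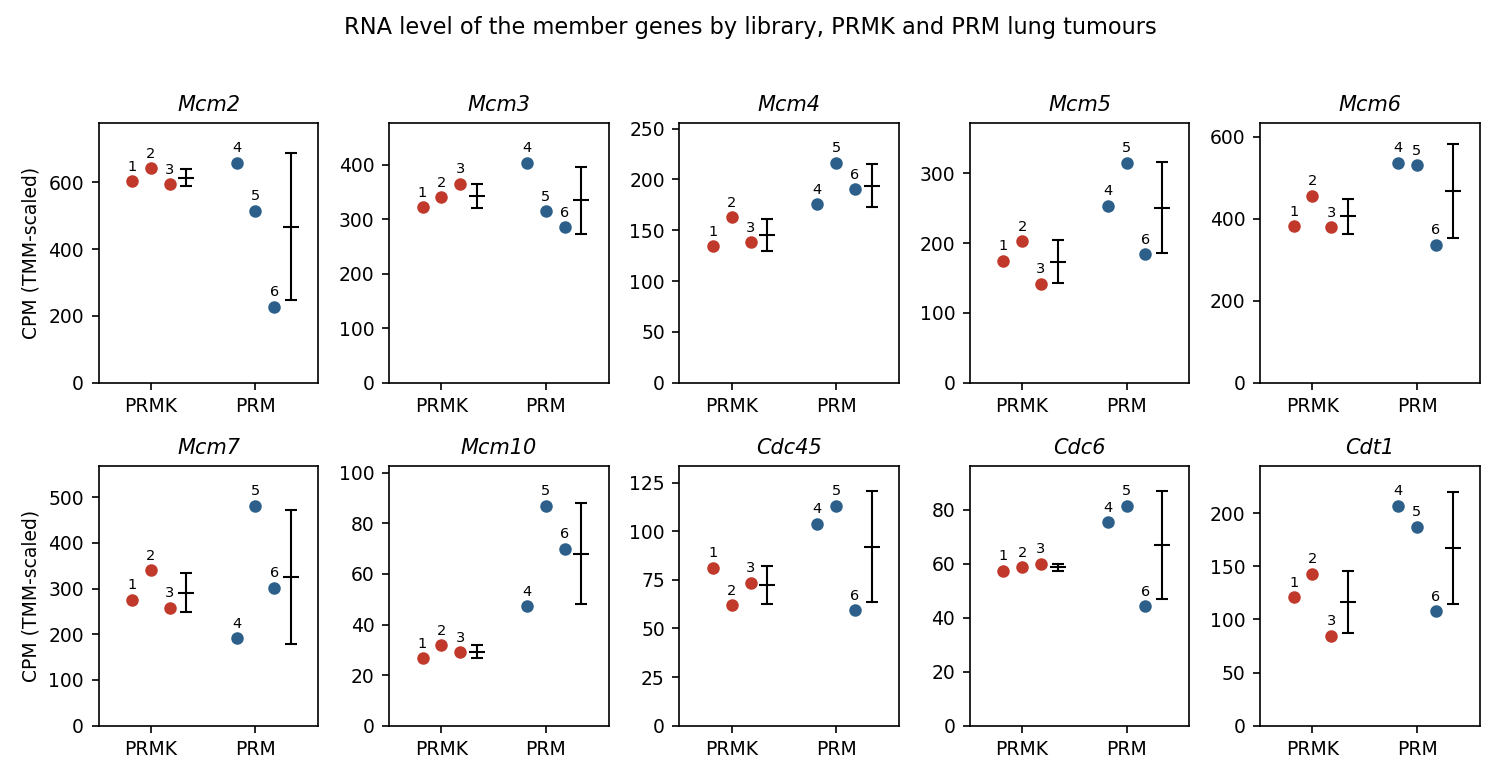
RNA level of each member in CPM (vertical axis, from 0) in the 3 PRMK libraries (red, numbered 1 to 3) and the 3 PRM libraries (blue, numbered 4 to 6), with the mean and SD of each group in black. The groups do not overlap for Mcm4 and Mcm10, and PRM library 6 is the lowest of the 6 for Mcm2, Mcm3, Mcm6, Cdc45 and Cdc6.

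Among the licensing factors, Cdt1, which brings the MCM ring to origins, had 121, 143 and 84.8 CPM in PRMK, against 207, 187 and 108 CPM in PRM. Its log2 fold change was -0.53 (SE 0.32; 95% interval -1.31 to 0.26; edgeR adjusted p = 0.440). PRM libraries 4 and 5 lay above every PRMK library, while PRM library 6 fell within the PRMK range. Cdc6, an ATPase that works with the origin recognition complex in loading the ring, had 57.5, 58.7 and 60.0 CPM in PRMK, against 75.3, 81.5 and 44.2 CPM in PRM. The PRMK libraries lay close together, between the lowest PRM library and the other two, and the log2 fold change was -0.19 (SE 0.27; edgeR adjusted p = 0.739).

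Among the ring subunits, Mcm4 had 134, 163 and 138 CPM in PRMK, against 175, 216 and 190 CPM in PRM. It was the only subunit of the ring whose groups did not overlap, with a log2 fold change of -0.42 (SE 0.18; 95% interval -0.86 to 0.02; edgeR adjusted p = 0.306). Mcm5, the subunit next to Mcm2 at the gate through which DNA enters the ring, had 175, 203 and 142 CPM in PRMK, against 254, 315 and 184 CPM in PRM. Only PRM library 6 lay within the PRMK range of Mcm5, and the log2 fold change was -0.53 (SE 0.26; 95% interval -1.18 to 0.11; edgeR adjusted p = 0.354). Mcm6 had 382, 456 and 380 CPM in PRMK, against 537, 531 and 337 CPM in PRM, with a log2 fold change of -0.21 (SE 0.25; edgeR adjusted p = 0.692). Here too PRM libraries 4 and 5 were above and PRM library 6 below every PRMK library.

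Mcm2, whose amino-terminal tail binds histones, went the other way in value, with 604, 642 and 595 CPM in PRMK, against 658, 514 and 227 CPM in PRM. PRM library 6 held less than any other library and PRM library 4 more, so the groups overlapped, and the log2 fold change was 0.39 (SE 0.39; 95% interval -0.56 to 1.35; edgeR adjusted p = 0.624). It was 0.07 without PRM library 6 and 0.69 without PRM library 4. Mcm3 had 322, 341 and 365 CPM in PRMK, against 404, 315 and 286 CPM in PRM, with a log2 fold change of 0.03 (SE 0.21; edgeR adjusted p = 0.946). Mcm7, the host gene of Mir25, Mir93 and Mir106b, had 276, 340 and 258 CPM in PRMK, against 192, 482 and 302 CPM in PRM, with a log2 fold change of -0.16 (SE 0.36; 95% interval -1.03 to 0.71; edgeR adjusted p = 0.841). PRM libraries thus held both the lowest and the highest Mcm7 level of the 6.

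Position on the chromosome went with some of these values. Mcm7 lies on chromosome 5, and in PRM library 4, where Mcm7 was lowest, 654 other genes of that chromosome with at least 10 CPM had a median of -0.89 (log2, relative to each gene's mean over the other 5 libraries), with Mcm7 at -0.75. Mcm5 and Cdt1 lie on chromosome 8, and in PRMK library 3, where both were lowest, 572 other genes of that chromosome had a median of -0.25, with Mcm5 at -0.64 and Cdt1 at -0.81. Over all libraries, the median log2 fold change (PRMK over PRM) was 0.19 on chromosome 5, -0.21 on chromosome 8 and -0.24 on chromosome 2, where Mcm10 lies. The part of chromosome-wide levels in the members' values was not tested.

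Of the factors that turn the loaded ring into an active helicase, Mcm10 differed most. It had 26.6, 31.7 and 29.2 CPM in PRMK, against 47.1, 87.0 and 70.0 CPM in PRM. Every PRMK library lay below every PRM library, and the fitted PRMK level was 0.429 times the PRM level, which is -1.22 on the log2 scale (SE 0.28; 95% interval -1.90 to -0.55). Its edgeR p was 0.00425 and the edgeR adjusted p 0.192, while the DESeq2 adjusted p was 0.00567. The authors' deposited table gives Mcm10 a log2 fold change of -1.17 (SE 0.34) and an adjusted p of 0.0187, and for the other 9 members log2 fold changes of -0.48 to 0.45 and adjusted p of 0.341 to 0.924. Groups that do not overlap with PRMK lower were found for 2 of 10 members, Mcm4 and Mcm10, against 14.6% of all genes tested and 17.6% of those with at least 10 CPM.

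With 1 PRMK library fewer, the DESeq2 log2 fold change of Mcm10 stayed at -1.17, -1.30 and -1.24 (without library 1, 2 or 3), while its DESeq2 adjusted p was 0.160, 0.0550 and 0.0902, and DESeq2 called 1.50%, 3.47% and 2.47% of all genes. Without PRM library 4, the PRM library with the least Mcm10, edgeR gave an adjusted p of 0.0394, and called 796 of all genes (5.59%) in place of 0. Over all alternatives to the edgeR test, adjusted p for Mcm10 in edgeR and DESeq2 ran from 1.25e-09 to 0.667. Cdc45, the CMG component that joins the ring with GINS, had 81.2, 62.1 and 73.6 CPM in PRMK, against 104, 113 and 59.4 CPM in PRM. PRM library 6 was again the lowest of the 6, and the log2 fold change of Cdc45 was -0.35 (SE 0.29; edgeR adjusted p = 0.557).

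**Figure D2:**
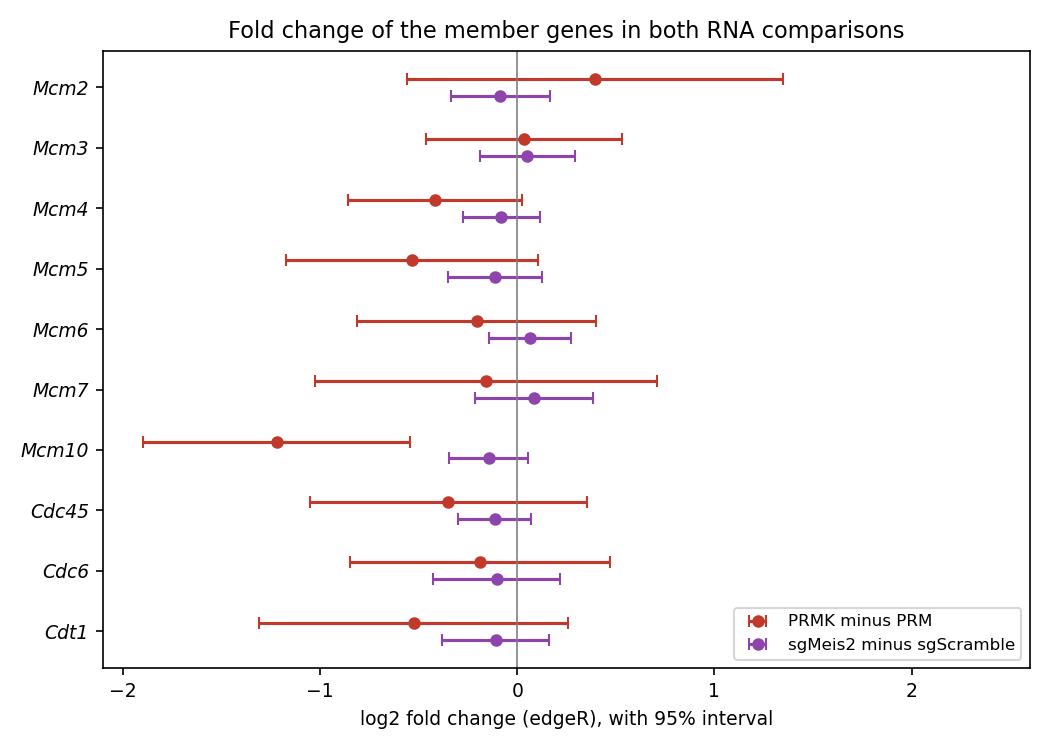
Log2 fold change of each member with its 95% interval from edgeR (horizontal axis), for PRMK over PRM (red) and sgMeis2 over sgScramble (purple). The interval of Mcm10 in PRMK over PRM, -1.90 to -0.55, is the only 1 of the 20 that does not reach 0, and those of sgMeis2 over sgScramble are all narrower than their PRMK over PRM counterparts.

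The libraries with the extreme values were often the same ones. PRM library 5 held the highest level of 6 members (Mcm4, Mcm5, Mcm7, Mcm10, Cdc45 and Cdc6), PRM library 4 that of the other 4, and PRM library 6 the lowest level of 5 (Mcm2, Mcm3, Mcm6, Cdc45 and Cdc6). PRM library 6 is also the library with the lowest summed level of neuroendocrine markers and the lowest total count, and the part of either in its values was not tested. PRM library 5 is the library with the lowest sums of myeloid (3.98 CPM), fibroblast (3.08 CPM) and endothelial (0.785 CPM) markers, and the part of host cells in the members' levels was not tested. Over the 6 libraries of this table, the correlation of log2 CPM between 2 members had a median of 0.45 over 45 pairs, with 39 pairs above 0. It was highest for Mcm4 and Mcm10 (r = 0.96) and lowest for Mcm3 and Mcm7 (r = -0.65). Over all genes tested, log2 CPM of PRM library 4 correlated at 0.89, 0.91 and 0.88 with PRMK libraries 1 to 3. With PRM libraries 5 and 6 it correlated at 0.86 and 0.78, and those libraries with each other at 0.78. PRMK libraries correlated with each other at 0.94 to 0.97, so the PRM libraries were less alike than the PRMK libraries.

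The rest of the replication machinery was read from lists of genes in the same comparison. In the list for origin recognition and MCM loading, log2 fold changes were below 0 for 10 of 13 genes, with a median of -0.49, and edgeR called 0 of them. The lowest p belonged to Mcm8, an MCM relative that works in recombination, with 15.6, 13.3 and 16.8 CPM in PRMK, against 27.3, 46.4 and 40.1 CPM in PRM (log2 fold change -1.32, edgeR adjusted p = 0.191, DESeq2 adjusted p = 0.00205). Orc6, the smallest subunit of the origin recognition complex, had a log2 fold change of -0.84 (SE 0.28; edgeR adjusted p = 0.235). In both genes every PRMK library was below every PRM library.

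In the list for CMG assembly and the fork, 11 of 14 genes had a log2 fold change below 0, with a median of -0.33 and 0 calls by edgeR. Gins1, a GINS subunit, had 27.7, 29.1 and 25.4 CPM in PRMK, against 45.1, 64.1 and 42.2 CPM in PRM (log2 fold change -0.88, edgeR adjusted p = 0.210, DESeq2 adjusted p = 0.0194), and the groups did not overlap. Gins4, another subunit of that complex, had a log2 fold change of -0.72 (SE 0.24; edgeR adjusted p = 0.237). For nucleotide supply, 7 of 9 genes were below 0 with a median of -0.36, and edgeR called 0. Rrm2, the small subunit of ribonucleotide reductase, was at -0.55 (SE 0.19) and Umps, an enzyme of pyrimidine synthesis, at -0.55 (SE 0.25).

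Genes of DNA synthesis itself were spread to either side, with 13 of 24 above 0, 11 below and a median of 0.00. Prim1, the catalytic subunit of primase, had 150, 145 and 136 CPM in PRMK, against 82.8, 82.1 and 82.5 CPM in PRM. The log2 fold change of Prim1 was 0.80 (SE 0.16; edgeR adjusted p = 0.190, DESeq2 adjusted p = 4.48e-06), and all 3 PRMK libraries were higher than any PRM library. Rnaseh2a, which encodes the catalytic subunit of ribonuclease H2, had a log2 fold change of -1.10 (SE 0.30; edgeR adjusted p = 0.208, DESeq2 adjusted p = 0.0307).

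Among regulators of entry into DNA synthesis, 16 of 24 genes tested were below 0, with a median of -0.23 and 0 edgeR calls. Dtl, which directs the destruction of Cdt1 during DNA synthesis, was at -0.74 (SE 0.24; edgeR adjusted p = 0.235). E2f7, a repressive E2F, was at 0.59 (SE 0.19; edgeR adjusted p = 0.235, DESeq2 adjusted p = 0.0396). Of the mitotic proliferation markers, 12 of 14 were below 0, with a median of -0.22, and edgeR called 0. Bub1, a spindle checkpoint kinase, had 47.8, 44.2 and 52.4 CPM in PRMK, against 66.2, 126 and 124 CPM in PRM (log2 fold change -1.13, edgeR adjusted p = 0.204, DESeq2 adjusted p = 0.0242), and Aurka, a spindle kinase, was at -0.91 (SE 0.32; edgeR adjusted p = 0.245). Of the genes named from these lists, Mcm8, Gins1, Bub1 and Aurka lie on chromosome 2, and Orc6, Gins4 and Rnaseh2a on chromosome 8. Median log2 fold changes (PRMK over PRM) there were -0.24 and -0.21 over genes with at least 10 CPM. Prim1 and E2f7, the named genes above 0, lie on chromosome 10 (median 0.18). Rrm2, Umps and Dtl lie on chromosomes 12, 16 and 1 (medians -0.15, -0.12 and -0.15). The part of chromosome-wide levels in these genes was not tested.

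**Figure D3:**
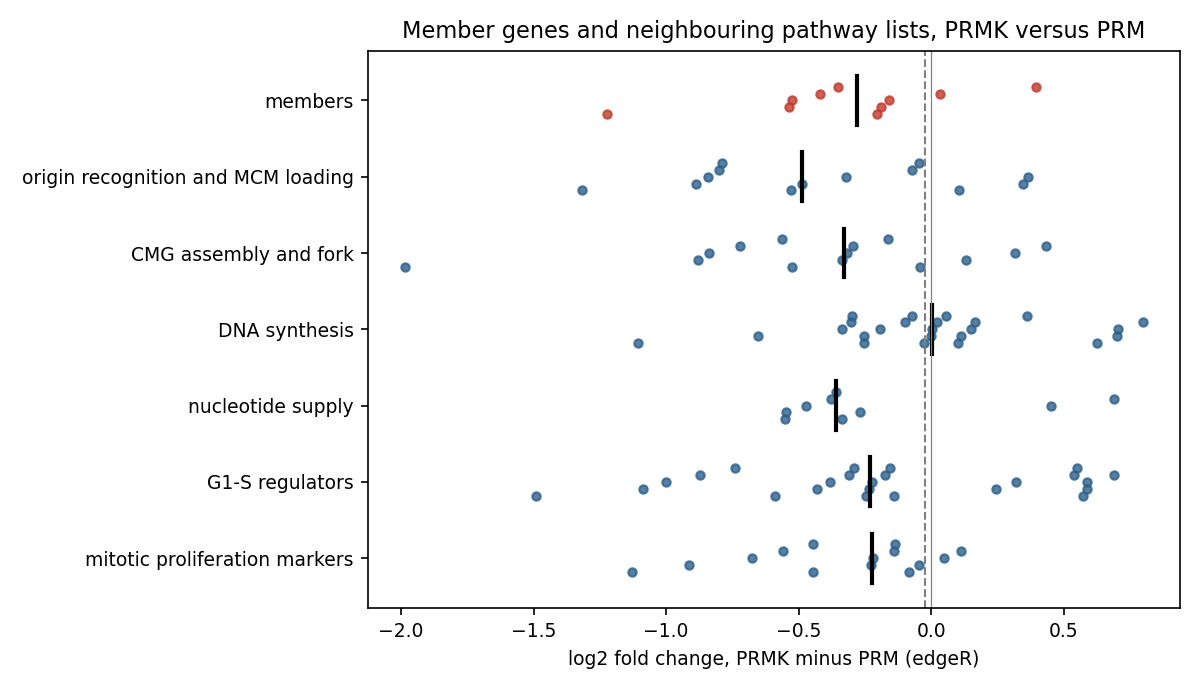
Log2 fold change (PRMK over PRM, edgeR, horizontal axis) of each gene tested in the members and in 6 lists of related genes, with the median of each list as a black bar and that of all genes tested as a dashed line. Medians run from -0.49 for origin recognition and MCM loading to 0.00 for DNA synthesis, against -0.02 for all genes.

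The second RNA comparison set sgMeis2 against sgScramble tumours, which share every other plasmid. Meis2 itself was at 219, 224 and 137 CPM in sgMeis2, against 259, 227 and 233 CPM in sgScramble, a log2 fold change of -0.31 (SE 0.19; edgeR adjusted p = 0.754). Epithelial markers summed to 142 to 163 CPM in sgMeis2 and 187 to 202 CPM in sgScramble, and neuroendocrine markers to 2787 to 3097 CPM in sgMeis2 and 2926 to 3001 CPM in sgScramble. Myeloid markers summed to 2.79 to 4.48 CPM in sgMeis2 and 2.85 to 3.84 CPM in sgScramble, against 466 to 682 CPM in PRMK. Fibroblast markers summed to 5.01 to 6.17 CPM in sgMeis2 and 6.94 to 7.87 CPM in sgScramble. Endothelial markers summed to 5.48 to 6.08 CPM in sgMeis2 and 6.24 to 8.33 CPM in sgScramble. Markers of host cells were thus low in all libraries of this comparison, unlike in PRMK. By edgeR and by DESeq2, 0 of 10 members passed an adjusted p under 0.05, and 0 had an unadjusted edgeR p under 0.05. Of the 16260 genes tested, edgeR called 0.00% (0 genes), DESeq2 0.135% (22 genes), and 4.67% (760 genes) had an unadjusted p under 0.05. Log2 fold changes were below 0 for 7 of 10 members, against 49.2% of all genes tested, and their median was -0.10. No member had groups that did not overlap, against 16.0% of all genes tested in either direction.

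The members' differences were small throughout, from -0.15 for Mcm10 to 0.08 for Mcm7. Mcm10 had 65.1, 66.2 and 61.7 CPM in sgMeis2, against 77.0, 70.8 and 65.7 CPM in sgScramble (95% interval of the log2 fold change -0.34 to 0.05). These tumours list a Kmt2c guide, yet every value lay above the PRMK range (26.6 to 31.7 CPM) and within that of PRM (47.1 to 87.0 CPM). The tables were scaled separately and host-cell markers differed between them, and the part of either in this was not tested. Cdt1 had 68.4, 72.9 and 79.7 CPM in sgMeis2, against 91.6, 76.2 and 70.7 CPM in sgScramble, and Cdc6 had 49.0, 50.1 and 61.0 CPM in sgMeis2, against 67.4, 54.2 and 50.7 CPM in sgScramble. Both loading factors were highest in sgScramble library 1, which also held the highest Mcm4, Mcm10 and Cdc45. Cdc45 had 81.9, 79.6 and 77.9 CPM in sgMeis2, against 93.1, 84.9 and 81.3 CPM in sgScramble.

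The ring subunits were split here by 1 library, sgMeis2 library 3. Mcm7 had 264, 276 and 358 CPM in sgMeis2, against 296, 269 and 282 CPM in sgScramble. Mcm6 had 313, 320 and 365 CPM in sgMeis2, against 326, 310 and 319 CPM in sgScramble. Mcm3 had 203, 196 and 242 CPM in sgMeis2, against 218, 203 and 198 CPM in sgScramble. In all 3 genes sgMeis2 library 3 was the highest of the 6.

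For the other 3 subunits the same library was the lowest. Mcm2 had 333, 329 and 265 CPM in sgMeis2, against 321, 338 and 326 CPM in sgScramble. Mcm4 had 176, 182 and 158 CPM in sgMeis2, against 189, 181 and 177 CPM in sgScramble. Mcm5 had 104, 105 and 84.0 CPM in sgMeis2, against 105, 102 and 109 CPM in sgScramble. Without sgMeis2 library 3, the log2 fold changes were 0.0082 for Mcm2, -0.053 for Mcm3, -0.014 for Mcm6 and -0.069 for Mcm7, each opposite in sign to the value from all 6 libraries. Across this table the pairwise correlations of log2 CPM ran from -0.99 for Mcm2 and Mcm6 to 0.99 for Mcm6 and Mcm7, with a median of 0.40 and 25 of 45 pairs above 0. Over all genes, counts of sgMeis2 library 3 differed from those of the other 5 libraries with a chi-square per degree of freedom of 107 to 119. Among those 5 libraries it was 2.04 to 8.15. Between libraries of the PRMK and PRM table it ran from 33.9 to 338, and among PRM libraries alone from 211 to 271.

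In the lists of related genes, edgeR called 0 genes of each, and medians of the log2 fold changes ran from -0.04 for origin recognition and MCM loading (9 of 13 below 0) and for nucleotide supply (5 of 9 below 0) to 0.09 for CMG assembly and the fork (11 of 14 above 0). In between lay DNA synthesis and the regulators of entry into DNA synthesis, both at 0.02 (14 of 24 and 14 of 25 above 0), and the mitotic markers at 0.08 (10 of 14 above 0). Among the genes with the lowest edgeR p in their lists were Kat7 (-0.24), Orc5 (-0.31), Mcmdc2 (0.33), Gins2 (0.22), Dna2 (0.22), Fen1 (0.84), Dut (0.28), Dtl (-0.21), Cdc25a (0.31), Aurka (0.29) and Aurkb (0.20), with the log2 fold change in brackets and an edgeR adjusted p of 0.754 for each. Fen1, a flap nuclease with the largest of these values, was at 1.32, 1.33 and 3.70 CPM in sgMeis2, against 1.24, 1.33 and 0.950 CPM in sgScramble, so that sgMeis2 library 3 alone stood high.

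Among 9163 other genes with at least 10 CPM in both tables, those whose log2 CPM most resembled the mean standardized level of the members were Zc3h8, Ranbp9, Atad2, Zfp354c and Usp37. Their correlations with that mean over 6 libraries were 0.97, 0.97, 0.91, 0.88 and 0.91 in the PRMK and PRM table, and 0.99, 0.92, 0.96, 0.97 and 0.93 in the sgMeis2 and sgScramble table. In the second of these, the members' mean was 0.92 in sgScramble library 1 and between -0.38 and 0.01 in every other library. A high correlation there thus rests largely on sgScramble library 1. The libraries of a table share their scaling, and these values are descriptions.

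Chromatin at the members was then read from the peak lists. Methylation of H3K4 with 2 or 3 methyl groups (H3K4me2, H3K4me3) marks active promoters, H3K4 with 1 methyl group (H3K4me1) marks enhancers and promoter flanks, and ATAC marks open DNA. A promoter was counted as occupied where a peak lay within 1 kb of the gene start, and the background is the share of 8037 protein-coding genes with at least 10 CPM. For Mcm4, which has no entry in the promoter table, either gene end was taken as its start. Histone marks and KMT2C were mapped by CUT&Tag, in which an antibody directs a transposase to its target, and the depth of these libraries is unknown.

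All 10 members had an H3K4me3 peak and an H3K4me2 peak at the promoter in every lung library. The background for H3K4me3 was 96.9% and 96.2% in PRMK libraries 1 and 2 and 97.0% and 96.7% in PRM libraries 1 and 2, and for H3K4me2 97.7% and 96.8% in PRMK and 93.3% and 95.7% in PRM, so occupancy of the members was near that of expressed genes at large. In lung ATAC lists, 0 and 8 members had a promoter peak in PRMK (background 3.51% and 66.0%), against 10 and 10 in PRM (background 70.9% and 68.5%). The first PRMK list held 565 peaks and the second 54175, against 64575 and 19815 in PRM, and Mcm3 and Mcm10 were the 2 members without a peak in the second PRMK list. In liver PRM the lists held 313 and 120 peaks, and 0 members had one (background 0.199% and 0.274%).

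H3K4me1 peaks at the promoter were fewer. In lung, 3 and 0 members had one in PRMK (background 29.4% and 14.6%), against 3 and 4 in PRM (background 21.4% and 17.6%), and in liver PRM 2 and 5 members had one (background 15.6% and 29.2%). KMT2C peaks were at 10 and 9 member promoters in lung libraries labelled PRMK (background 85.8% and 85.3%), against 6 and 7 in lung PRM (background 40.5% and 54.9%). In liver PRM they were at 10 and 10 (background 79.4% and 88.9%), against the same lung PRM lists. Mcm3, Mcm5 and Mcm10 had no KMT2C promoter peak in either lung PRM list. The KMT2C lists of the libraries labelled PRMK held 187682 and 134561 peaks, against 9949 and 16681 in lung PRM, and the liver PRM lists 65201 and 113129, so members and background moved with list length. Depth is unknown and list length also differed between liver and lung PRM, so list length cannot check the label of editing at Kmt2c. These are called libraries labelled PRMK, and the part of depth in the list lengths was not tested.

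**Figure D4:**
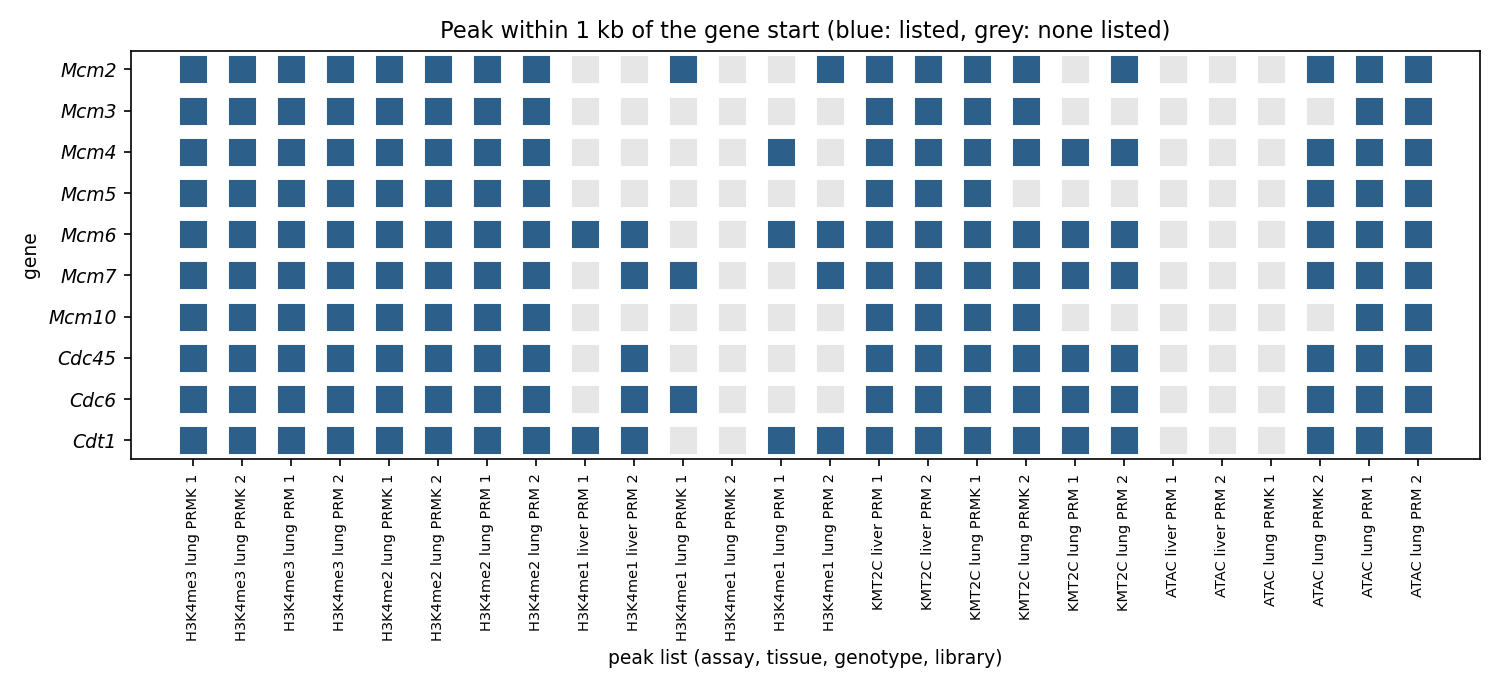
Presence of a peak within 1 kb of the gene start for each member (rows) in each of the 26 peak lists (columns, grouped by assay, tissue, genotype and library); blue squares have a listed peak and grey squares have none. H3K4me3 and H3K4me2 are present at all 10 members in every lung library, while KMT2C is missing at Mcm3, Mcm5 and Mcm10 in both lung PRM lists.

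Peaks of each mark were merged into regions, and a region was gained where both libraries of the first group and neither of the second had a peak, lost in the reverse case, and kept where all 4 had one. With 2 libraries against 2, an exact permutation test gives no p under 0.33, so no test was made. For H3K4me3 in PRMK against PRM, 0 of 15 member regions were gained and 0 lost (background 1.26% and 3.20% of all regions), and 12 were kept (background 55.3%). For H3K4me2, 0 of 17 were gained and 1 lost (background 8.07% and 1.36%), and 13 were kept (background 42.0%). The H3K4me2 region lost lies in the flank of Cdc45 beside Cldn5, a tight junction gene of endothelium, at chr16:18775810-18779867, with a highest authors' signal of 90 in both PRM lists.

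For H3K4me1 in PRMK against PRM, 0 of 15 member regions were gained and 2 lost (background 15.6% and 14.1%), and 6 were kept (background 24.7%). One is within Cdc45 at chr16:18799341-18803399, with a highest authors' signal of 32 in both PRM lists, and the other is in the flank of Cdt1 at chr8:122554765-122558311. For H3K4me1 in liver PRM against lung PRM, 0 of 16 were gained and 0 lost (background 4.11% and 1.02%), and 8 were kept (background 53.3%). The share lost in PRMK (13.3%) was near that of all regions. With 15 and 16 member regions, the counts of 0 are too small to set the members apart from all regions.

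For KMT2C in libraries labelled PRMK against PRM, 20 of 100 member regions were gained and 0 lost (background 20.8% and 0.258%). They lay at Mcm2 (6), Mcm10 (5), Mcm3 (3), Mcm7 (2), Cdt1 (2), Cdc45 (1) and Mcm5 (1), and those at Mcm3 and Mcm10 included the promoter. For KMT2C in liver PRM against the same lung PRM lists, 17 of 68 were gained and 0 lost (background 21.5% and 0.127%), with the promoters of Mcm3, Mcm5 and Mcm10 among them. Both gained shares were near the background, and the comparisons share their lung PRM lists. Kept regions numbered 10 of 100 in libraries labelled PRMK against PRM (background 3.03%) and 10 of 68 in liver PRM against lung PRM (background 6.31%). These kept shares were above the background, which also holds regions away from genes.

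Since nearly all expressed genes carried H3K4me2 and H3K4me3, the height of the peaks was compared by rank. Each promoter with a peak in all 4 lung lists was ranked in each library by the authors' highest signal, over 7648 promoters for H3K4me3 and 7357 for H3K4me2. For H3K4me3, Mcm5 stood at percentiles 18.8 and 21.5 in PRMK, against 72.6 and 79.5 in PRM. Cdt1 stood at 25.3 and 39.7 in PRMK, against 87.7 and 79.4 in PRM. For H3K4me2, Mcm5 stood at 11.9 and 23.9 in PRMK, against 85.7 and 85.6 in PRM, and Cdt1 at 37.1 and 36.9 in PRMK, against 92.0 and 82.5 in PRM. Both PRMK libraries were thus below both PRM libraries for both genes and both marks.

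Ordered from most negative, the PRMK minus PRM difference of Mcm5 (-56.0 points in H3K4me3, -67.7 in H3K4me2) lay at 0.785% and 0.462% of all shared promoters, and that of Cdt1 (-51.0 and -50.2 points) at 1.54% and 2.51%. Mcm5 and Cdt1 are the members on chromosome 8, and the whole chromosome ranked lower in PRMK. Over its 382 shared promoters, the median H3K4me3 percentile was 19.2 and 22.3 in PRMK, against 62.3 and 58.7 in PRM. Over 370 in H3K4me2 it was 15.9 and 17.4 in PRMK, against 63.9 and 60.1 in PRM. The median difference of these promoters was -35.4 points in H3K4me3 and -34.9 in H3K4me2, and of the other chromosomes compared, chromosome 14, which holds no member, was similar (-31.8 and -35.9). The part of the chromosome in the values of Mcm5 and Cdt1 was not tested.

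The other 8 members moved by less. In H3K4me3 their differences ran from -0.932 points for Mcm6 to 19.5 for Mcm2, and in H3K4me2 from -5.85 for Mcm6 to 15.3 for Mcm2. Mcm10, the gene with the largest RNA difference, stood for H3K4me3 at 33.1 and 37.5 in PRMK, against 14.3 and 35.8 in PRM. For H3K4me2 it stood at 23.4 and 40.2 in PRMK, against 32.6 and 40.2 in PRM. Its promoter rank was thus not lower in PRMK beyond the spread between libraries. These PRMK chromatin libraries list the Meis2 or the scrambled guide, and RNA of tumours with those guides held Mcm10 at 61.7 to 77.0 CPM. The rank therefore cannot be set against the lower Mcm10 RNA of the PRMK libraries. Mcm4 and Cdc45 share chromosome 16, whose median H3K4me3 percentile was 60.1 and 61.1 in PRMK, against 25.9 and 54.6 in PRM. For H3K4me3, Mcm4 stood at 89.2 and 88.1 in PRMK, against 72.2 and 76.5 in PRM, and the part of the chromosome in this was not tested. Mcm4 lies 44 bp from Prkdc, and the starts of Mcm7 and Cdc45 overlap Ap4m1 by 91 bp and Ufd1 by 237 bp, so peaks there cannot be told apart from those of the neighbours. The same holds for RNA reads in the shared bases, since counting by strand is not stated.

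**Figure D5:**
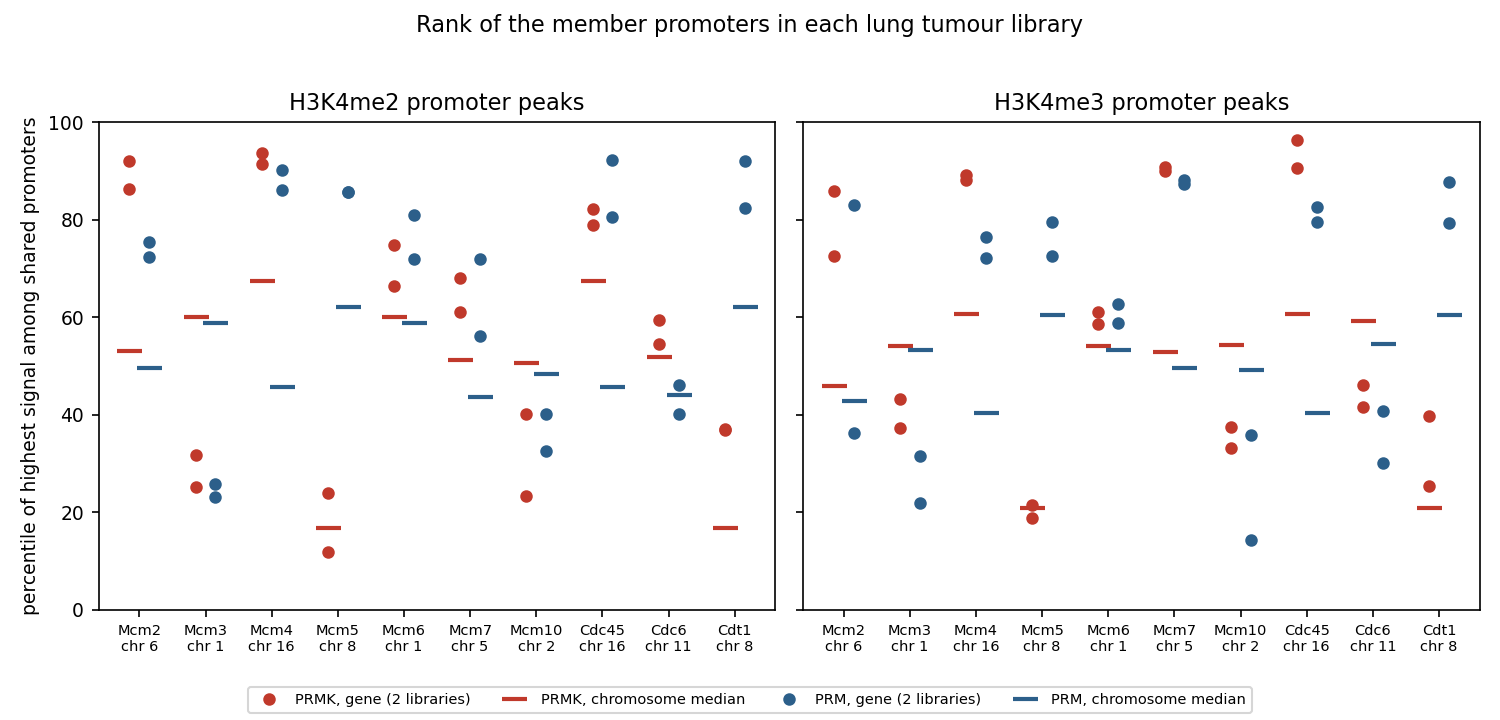
Percentile of each member's promoter peak (vertical axis) among promoters with a peak in all 4 lung lists, by the authors' highest signal, for H3K4me2 (left) and H3K4me3 (right), with 2 PRMK libraries in red and 2 PRM libraries in blue; bars give the median of the member's chromosome, averaged over both libraries. Mcm5 and Cdt1 are far lower in PRMK in both marks, as is the median of chromosome 8.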

How the data were processed

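RNA was measured in 12 libraries and peaks in 26. Per the submitters' processing notes, the tools were STAR 2.6.0a on GRCm38 for RNA, Bowtie2 2.2.1 on mm10 for ATAC, Bowtie2 on mm10 with SEACR for CUT&Tag, and DESeq2. The authors deposited raw counts per gene, beside their own log2 fold changes and p-values with adjusted p-values, which were copied for the members. The deposited ATAC peaks carry the score their caller wrote, and the deposited CUT&Tag lists give total and highest signal per peak, with no depth stated. The peak control, and whether RNA counting used strand, are not given in the sources used here, and 12 per-sample columns of the tables were not used. Whole-genome bisulfite, single-cell, IgG and S-adenosylmethionine data are not analysed here.

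In R 4.3.3, counts were tested over all genes with the edgeR 4.0.16 quasi-likelihood test (TMM scaling, filterByExpr, Benjamini-Hochberg adjusted p under 0.05), with DESeq2 1.42.0, the edgeR likelihood ratio test, DESeq2 size factors, no filter, each library left out and other peak windows and overlaps as alternatives. Both tables were fitted separately. Groups came from the labels, and columns from their headers. Gene symbols were filled from the reference by gene ID for 24552 of 24781 IDs without one in the second table. Peaks were compared in Python 3.11.15, a region counting as held by a library with 1 bp of overlap, and figures drawn with matplotlib 3.10.9. Procedures were tested on simulated data. The small number of libraries and the spread between them limit RNA precision. Intervals of 95% come from the edgeR fit. The members and lists were chosen with earlier results of these data known. Named genes were all members, the drivers, the 2 genes of lowest p in each list and the 5 most like the members. Of these, 1 gene is not reported here.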

Additional observations from a re-analysis of the deposited data

How the results depend on the processing

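Of 160 alternative values of the members' log2 fold changes in PRMK over PRM, 145 kept the direction and their side of the threshold and 7 came to pass it. The other 8 changed sign. Mcm3 ran from -0.064 without PRM library 6 to 0.14 without PRM library 4 in edgeR; it was also -0.053 without PRMK library 3 and -0.0041 without PRM library 5. Without the same 3 libraries DESeq2 put Mcm3 at -0.065 (PRM library 6), -0.027 (PRMK library 3) and -0.022 (PRM library 5). Mcm7 ran from -0.47 without PRM library 4 to 0.24 without PRM library 5 in edgeR, and was 0.21 without PRM library 5 in DESeq2. Members called numbered 0 in edgeR and 1 in DESeq2. With a library left out, they numbered 0 to 1 in edgeR and 0 to 2 in DESeq2, the last being chosen after seeing the data; the added DESeq2 calls were Mcm4 without PRM library 4, where 28.5% of all genes were called, and Mcm5 without PRM library 6, where 15.1% were. The edgeR call came without PRM library 4, where 5.59% of all genes were called.

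In sgMeis2 over sgScramble, 104 of 110 values kept direction and call, and 6 changed sign with a library left out. The ranges were -0.14 to 0.0082 for Mcm2, -0.053 to 0.11 for Mcm3, -0.014 to 0.11 for Mcm6, -0.069 to 0.17 for Mcm7, -0.22 to 0.025 for Cdc6 and -0.18 to 0.0052 for Cdt1; leaving out sgMeis2 library 3 changed the sign of the first 4 genes and leaving out sgScramble library 1 that of Cdc6 and Cdt1. The cause of these changes was not tested.

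No paired analysis was possible because PRMK and PRM columns share no replicate number. Between sgMeis2 and sgScramble the replicate numbers do not pair the libraries, whose same-numbered deviations correlated at 0.009, -0.005 and 0.03. With the replicate block, 0 members were called and their median log2 fold change was -0.10.

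Counts of member regions gained or lost moved with the lists, as did the share of all regions, given in brackets. For H3K4me1 in PRMK they were 2 of 15 (29.7%), 1 of 9 with 2 kb flanks, and 1 to 5 with a library left out: 4 of 14 without either PRMK library (56.8% and 52.3%), 1 of 12 without PRM library 1 (35.9%) and 5 of 16 without PRM library 2 (36.6%). For H3K4me1 in liver they were 0 of 16 (5.13%) and 0 to 5 with a library left out, with 5 of 16 without liver library 1 (23.0%) and 2 of 13 without liver library 2 (15.6%). For H3K4me2 they were 1 of 17 (9.42%), 2 of 17 where a peak had to cover at least 50% of a region (10.8%), and 1 to 4 with a library left out, with 4 of 18 without PRMK library 2 (29.5%). For H3K4me3 they were 0 of 15 (4.46%) and 0 to 2 with a library left out, with 2 of 15 without PRM library 1 (27.4%). For KMT2C in libraries labelled PRMK they were 20 of 100 (21.0%), 11 of 63 with 2 kb flanks, and 22 to 65 with a library left out, with 46 of 63 and 65 of 83 without the first and the second of these (88.3% and 91.5%). For KMT2C in liver they were 17 of 68 (21.6%), 8 of 36 over the stronger peaks of each list (25.5%), 10 of 40 with 2 kb flanks, and 18 to 47 with a library left out, with 47 of 63 and 29 of 43 without liver library 1 and 2 (85.8% and 76.0%). Member promoters with a peak numbered 177 of 260 gene and library pairs, and 183 with a window of 2.5 kb. Unknown depth limits what an absent peak shows.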
